A study of Mus musculus with 6 samples.

Results

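A set of 36 genes of the response to low oxygen and of glycolysis was followed in mouse embryonic fibroblasts without functional Pax7 and in wild-type fibroblasts. The set is a list of gene symbols of these pathways, chosen with earlier results of these data known. It holds 15 glycolytic enzymes and 21 other hypoxia genes. Each gene was read from the probe set that names it alone, and where there were several, from the one with the highest mean over all 6 arrays. By that rule 31 of the 36 could be used, 12 glycolytic enzymes and 19 other hypoxia genes, of 22180 genes in all. Aldoa, Bnip3l and Ankrd37 lay only on probe sets shared with another gene, and Gpi1 and Eno1 were not listed in the probe annotation used. These 5 genes are not analysed here.

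The arrays comprised 3 labelled Pax7-/- and 3 labelled Pax7+/+, with replicates numbered 1 to 3 in each genotype. All cells carried the same labelled background, F1 (C57Bl6N x 129Sv), were grown in DMEM with serum and antibiotics, and were harvested once confluent. No low-oxygen treatment is named, and embryo age and the design of the Pax7 allele are not stated in the labels. The titles call the replicates biological without saying whether they were separate embryos or cultures, so p-values measure only the spread between these arrays. Total RNA was hybridised to Affymetrix arrays, and the values are log2 signals of probe sets, which compare a gene between arrays but not 1 gene with another.

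One label disagrees with the others, since the cell type field reads ESCs while titles and source name fibroblasts. All 12 fibroblast markers examined, among them Col1a1 and Thy1, lay above background on all 6 arrays. Of 10 markers of pluripotent cells, Pou5f1 alone did so, and 6 were above background on none. Background was set on each array at the 95th percentile of the signals of 1394 receptor genes of smell (olfactory and vomeronasal). Pax7 itself, a transcription factor of muscle progenitors and neural crest, had 6.17, 5.95 and 5.05 log2 signal on knockout replicates 1, 2 and 3, against 6.14, 5.65 and 4.88 in wild type. Its genotypes overlapped, and because the place of its probes relative to the deleted part is not known here, this signal does not check the genotype labels.

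The 2 arrays numbered replicate 3 differed from the other 4 as whole arrays. Across genes they correlated with each other at 0.99 and with the rest at 0.81 to 0.84. The interquartile range of log2 signal was 2.98 on the knockout and 3.02 on the wild-type array of replicate 3, against 1.61 to 1.69 on the other arrays. Background was also lower there, at 4.63 in knockout and 4.65 in wild type, against 5.33 to 5.44 elsewhere. What set these arrays apart was not tested, and results are therefore given by replicate number and with replicate 3 left out. The data pair the replicate 3 arrays with each other, while the other arrays are paired by their numbers alone.

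When oxygen is plentiful, prolyl hydroxylases of the Egln family mark the HIF alpha subunits for destruction through the ubiquitin ligase component Vhl. In low oxygen the alpha subunits Hif1a and Epas1 persist, pair with Arnt and bind short DNA elements near their target genes. Targets include glucose transporters, most enzymes of glycolysis, and genes for mitophagy, collagen hydroxylation and pH control. Cultured fibroblasts use glycolysis even in air.

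Promoters are shown for 5 members, chosen after their values were seen. They have 1 annotated start and a signal on replicate 3 at least 1 log2 unit above the other replicates in both genotypes. Further members meet these criteria and are not shown. The sequences are the 200 bases before the start site in RefSeq's GRCm38.p6, written 5′ to 3′ on the strand of the gene. Capitals mark the core HIF motif, ACGTG or GCGTG, or its reverse complement, CACGT or CACGC. Hk2 is at chr6:82774455-82774654 on the minus strand and Slc2a1 at chr4:119108545-119108744 on the plus strand. Egln1 is at chr8:124949255-124949454 on the minus strand, Ero1a at chr14:45318573-45318772 on the minus strand, and Adm at chr7:110627457-110627656 on the plus strand.
Hk2: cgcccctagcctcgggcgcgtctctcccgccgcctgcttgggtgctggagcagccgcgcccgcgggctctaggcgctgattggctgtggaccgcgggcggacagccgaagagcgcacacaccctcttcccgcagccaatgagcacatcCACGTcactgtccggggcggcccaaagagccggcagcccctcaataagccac
Slc2a1: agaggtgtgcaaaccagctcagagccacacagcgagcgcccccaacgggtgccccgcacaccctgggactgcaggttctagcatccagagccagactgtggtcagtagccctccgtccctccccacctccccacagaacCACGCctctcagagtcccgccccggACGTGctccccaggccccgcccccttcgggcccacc
Egln1: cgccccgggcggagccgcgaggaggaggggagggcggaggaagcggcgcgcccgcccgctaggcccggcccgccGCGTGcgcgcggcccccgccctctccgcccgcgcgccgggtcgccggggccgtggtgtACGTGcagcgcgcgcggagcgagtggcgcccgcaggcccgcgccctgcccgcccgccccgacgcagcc
Ero1a: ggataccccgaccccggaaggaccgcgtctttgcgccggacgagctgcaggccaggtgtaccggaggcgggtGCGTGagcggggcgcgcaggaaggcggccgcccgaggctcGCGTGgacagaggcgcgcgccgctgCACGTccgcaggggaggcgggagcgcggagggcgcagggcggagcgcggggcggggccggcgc
Adm: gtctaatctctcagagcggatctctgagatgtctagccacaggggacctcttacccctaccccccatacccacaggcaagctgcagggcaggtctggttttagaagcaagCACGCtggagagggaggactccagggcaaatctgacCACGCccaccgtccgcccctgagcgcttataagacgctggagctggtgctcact

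All 5 windows held the motif, 52 bases before the start in Hk2, 61 and 36 in Slc2a1, 126 and 68 in Egln1, 128, 88 and 63 in Ero1a, and 90 and 54 in Adm, counted from the first base of each match. Over the RefSeq windows from 250 bases before to 50 after a start, 28 of the 32 members with a window had at least 1 match (87.5%), 12 of 15 glycolytic enzymes and 16 of 17 other hypoxia genes. The share over all 27025 genes with a window was 46.7%. Of windows with at least 15 CG dinucleotides, 71.4% held the motif, and the 5 shown range from 9 such dinucleotides in the Adm window to 60 in that of Egln1. Hk2 has a further match 226 bases before the start, outside the bases shown. Ldha, Hk1, Bnip3, Pfkp and Pfkfb3, without such a shift on replicate 3, held more matches in a window than any of the 5 shown. So did P4ha2, which had such a shift. Eno2, Tpi1 and Vhl, without it, held none. A match is a string of letters and not evidence of binding. No match was found for Eno2, Gpi1, Tpi1 and Vhl in these windows, and Slc2a3, Epas1, Ndrg1 and Bnip3l had no window in the table used. Matches on both strands of the letters CACGTG overlap and were counted as 2.

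**Figure D1:**
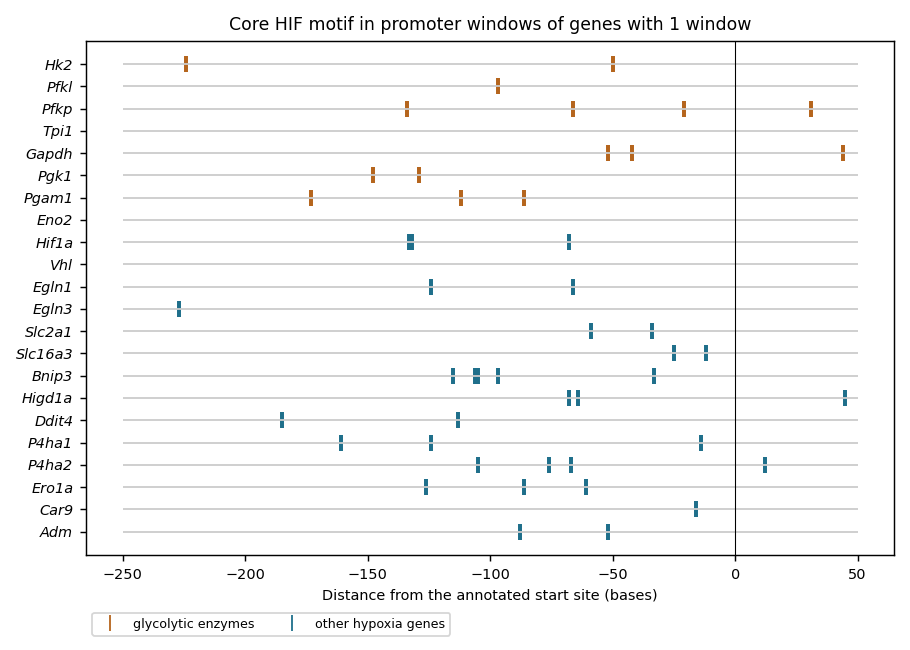
Position of the core HIF motif in the promoter windows of members that have 1 annotated window, in bases from the start site (0). Each tick is 1 match on either strand, brown for glycolytic enzymes and blue for other hypoxia genes, and most ticks lie before the start site.

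The question of the comparison was whether fibroblasts lacking Pax7 differ in these genes from wild type. No member passed the test in either direction. With limma's moderated test on genotype alone, adjusted over all 22180 genes at a threshold of 0.05, 0.0% of genes were higher and 0.0% lower in the knockout, and every member had an adjusted p of 1.0. That fit has wide intervals, given with the sizes that follow, so its p-values say little about the members. With the replicate number as a block, 0.00902% of all genes (2) were higher and 0.0676% (15) lower, and again no member was among them. The members' adjusted p-values in that limma fit ran between 0.558 and 0.996. On the probe set used for each member, in no case did the 3 knockout arrays lie clear of the 3 wild-type arrays, against 0.667% of all genes clear above and 0.744% clear below. In bulk RNA, fewer cells that express a gene and less RNA per cell cannot be told apart.

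The size that the data leave room for depends on the block. With it, the 95% intervals of all 31 differences (knockout minus wild type) lay within −0.53 and 0.58 on the log2 scale, which is 0.69-fold to 1.49-fold. The glycolytic enzymes alone lay within −0.28 and 0.38, or 0.83-fold to 1.30-fold. Without the block the members' intervals reached −2.39 and 2.32, with 17 of 31 inside 1 log2 unit on either side. The median difference was 0.023 over the 12 glycolytic enzymes and 0.028 over the 19 other hypoxia genes, against −0.0018 over all genes. Leaving out replicate 3 gave medians of 0.047 for the enzymes and 0.0043 for the others.

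**Figure D2:**
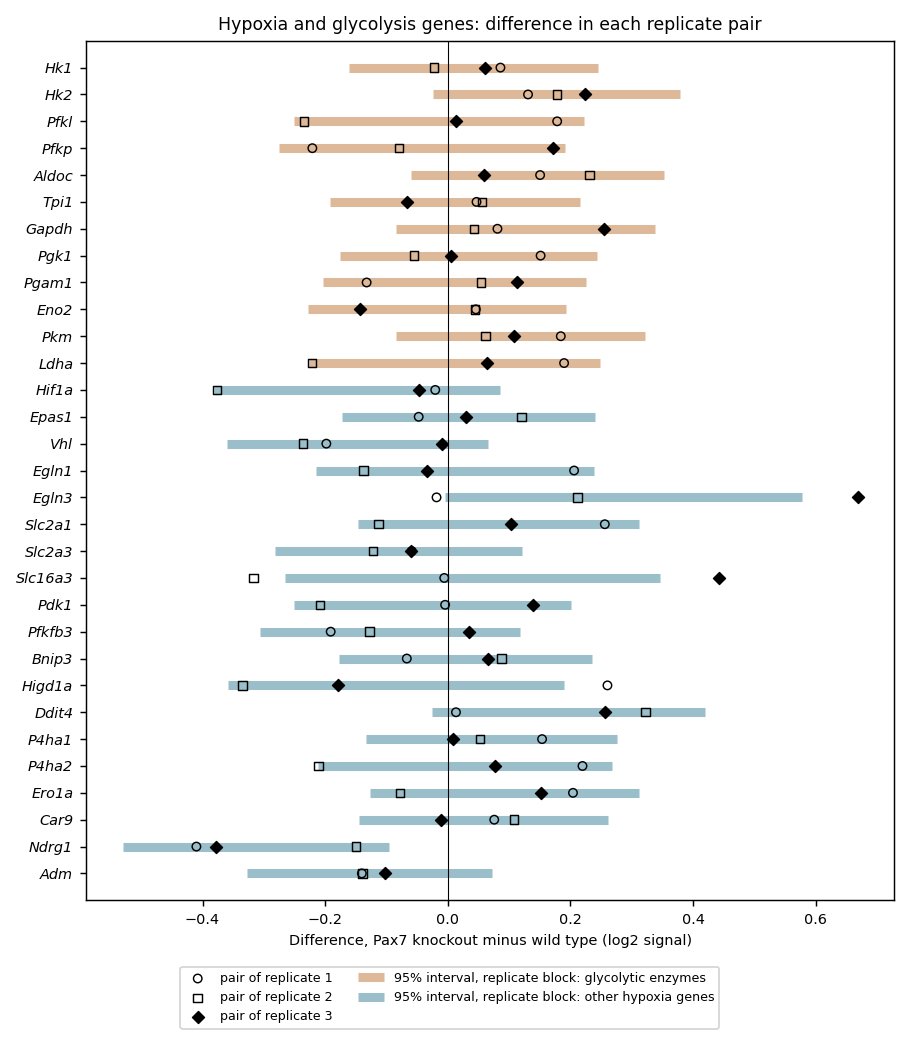
Difference in log2 signal, Pax7 knockout minus wild type, for each usable member (rows), with 1 symbol per replicate pair and a bar for the 95% interval of limma with the replicate block. The bars of all but Ndrg1 cross 0, and the widest pair differences are those of Egln3 and Slc16a3 in replicate 3.

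Glucose enters glycolysis through phosphorylation by hexokinases. Hk2, the inducible hexokinase, had 6.04, 6.21 and 7.36 log2 signal in knockout replicates 1, 2 and 3, against 5.91, 6.03 and 7.14 in wild type. It was higher in the knockout in each pair, by 0.13, 0.18 and 0.22, yet the genotypes overlapped because both replicate 3 arrays were high. The mean difference was 0.18 (SE 0.09 with the block, limma adjusted p = 0.784). Hk1, the constitutive hexokinase, had 6.41, 6.42 and 6.36 in knockout against 6.32, 6.45 and 6.30 in wild type, and varied little over the 6 arrays.

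Phosphofructokinase commits sugar to glycolysis, and aldolase then splits it into triose phosphates. Pfkl, the liver-type subunit, had 6.98, 6.96 and 8.20 in knockout against 6.80, 7.19 and 8.19 in wild type, and its pair differences changed sign. Pfkp, the platelet-type subunit, had 6.46, 6.72 and 7.13 in knockout against 6.68, 6.80 and 6.95 in wild type, lower in replicates 1 and 2 and higher in replicate 3. Aldoc, an aldolase best known from brain, had 5.41, 5.42 and 5.05 in knockout against 5.26, 5.19 and 4.99 in wild type. It exceeded background on 2 knockout arrays and 1 wild-type array only, so its difference of 0.15 (limma with block, adjusted p = 0.815) is close to the limit of detection.

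In the second part of the pathway, the triose phosphates become pyruvate with a net gain of ATP. Gapdh, which oxidises glyceraldehyde 3-phosphate and is often used as a loading control, had 11.81, 11.77 and 11.69 in knockout against 11.73, 11.73 and 11.44 in wild type. Its mean was 11.76 ± 0.06 in knockout and 11.63 ± 0.17 in wild type (SD, n = 3 each), a difference of 0.13 (limma with block, adjusted p = 0.858) in which wild-type replicate 3 was the lowest array. A second Gapdh probe set showed 11.83, 11.73 and 11.76 in knockout against 11.69, 11.67 and 11.46 in wild type, and there all 3 knockout arrays lay above all 3 wild-type arrays. The remaining Gapdh probe set had 7.09, 7.17 and 6.86 in knockout against 7.33, 7.18 and 6.34 in wild type, lower in the knockout in replicates 1 and 2 and higher in replicate 3. Wild-type replicate 3 was the lowest array on each. Many glycolytic genes have processed pseudogenes in the mouse, and how far these probe sets also read such copies was not tested.

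Pkm, the pyruvate kinase gene of most tissues, had 10.36, 10.31 and 11.06 in knockout against 10.18, 10.24 and 10.95 in wild type. It too was higher in the knockout in every pair, by 0.18, 0.06 and 0.11. Pgk1, phosphoglycerate kinase and a standard HIF target, had 9.72, 9.78 and 10.45 in knockout against 9.57, 9.84 and 10.44 in wild type, and its replicate 2 pair ran the other way. Ldha, which turns pyruvate into lactate, had 6.93, 6.88 and 7.24 in knockout against 6.74, 7.10 and 7.18 in wild type. These pair differences of 0.19, −0.22 and 0.06 average to 0.01, a spread between pairs far wider than the mean.

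The other enzymes of the pathway differed as little. Tpi1, triose phosphate isomerase, had 9.53, 9.82 and 10.29 in knockout against 9.48, 9.77 and 10.35 in wild type. Pgam1, phosphoglycerate mutase, had 8.29, 8.66 and 9.71 in knockout against 8.42, 8.61 and 9.60 in wild type. Eno2, the enolase typical of neurons, had 6.23, 6.36 and 6.11 in knockout against 6.19, 6.32 and 6.25 in wild type. Their differences were 0.01, 0.01 and −0.02. Over the 12 enzymes, 4 (Hk2, Aldoc, Gapdh and Pkm) were higher in the knockout in 3 of 3 pairs and none was lower in all 3, where 13.8% of all genes were higher and 13.8% lower. The enzymes' differences ran between −0.04 and 0.18, those of the other hypoxia genes between −0.31 and 0.29.

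Among the oxygen-sensing genes, Hif1a, the alpha subunit that low oxygen stabilises, had 6.71, 6.71 and 8.55 in knockout against 6.73, 7.08 and 8.60 in wild type. It was lower in the knockout in every pair, with differences of −0.02, −0.38 and −0.05 and a mean of −0.15 (limma with block, adjusted p = 0.845), and the replicate 2 pair was the widest. Vhl, the substrate receptor that targets HIF alpha, had 6.75, 6.45 and 6.49 in knockout against 6.94, 6.68 and 6.50 in wild type, a mean difference of −0.15 (adjusted p = 0.823 in the same limma fit). Epas1, the second HIF alpha subunit, had 5.81, 6.17 and 6.33 in knockout against 5.86, 6.05 and 6.31 in wild type, which is within the spread of its pairs. HIF alpha is controlled mainly through protein stability, which these arrays do not measure.

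Egln1 is the main oxygen-sensing prolyl hydroxylase and is itself a HIF target. It had 6.15, 5.97 and 8.05 in knockout against 5.94, 6.11 and 8.09 in wild type, so the replicate 3 arrays were above the rest, by 1.99 in knockout and 2.06 in wild type, while the genotypes overlapped. Egln3, a strongly hypoxia-induced relative, had 4.75, 4.94 and 6.33 in knockout against 4.76, 4.73 and 5.66 in wild type. It was above background on the replicate 3 arrays only, where the pair differed by 0.67, the widest pair difference of any member. Without replicate 3, on arrays where it was not above background, its difference was 0.10, against 0.29 with it (SE 0.13 with the block, limma adjusted p = 0.749).

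Transporters bring in glucose and export lactate. Slc2a1, the glucose transporter GLUT1, had 8.85, 8.90 and 10.04 in knockout against 8.59, 9.02 and 9.93 in wild type, with pair differences of 0.26, −0.11 and 0.10. Slc16a3, the lactate exporter MCT4, had 6.94, 6.83 and 7.02 in knockout against 6.95, 7.14 and 6.57 in wild type. Its pairs ran in opposite directions, −0.32 in replicate 2 and 0.44 in replicate 3. Slc2a3, the transporter GLUT3, was not above background on any array, and no fold is given for it.

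Pdk1, which holds back the entry of pyruvate into mitochondria, Pfkfb3, which makes an activator of phosphofructokinase, and Car9, a cell-surface carbonic anhydrase, were above background on the replicate 3 arrays only. There Pdk1 had 5.22 in knockout and 5.08 in wild type, and Pfkfb3 had 4.94 in knockout and 4.91 in wild type. Car9, often used as a marker of hypoxic cells, had 4.93 in knockout and 4.94 in wild type on those arrays, close above background.

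Of the genes of stress and mitochondria, Ddit4, an inhibitor of mTORC1 signalling, had 5.32, 5.36 and 7.53 in knockout against 5.31, 5.04 and 7.27 in wild type. It was higher in the knockout in each pair, by 0.01, 0.32 and 0.26, with a mean of 0.20 (SE 0.10 with the block, limma adjusted p = 0.784). In replicates 1 and 2 only the second knockout array exceeded background. Bnip3, a mitophagy receptor, had 5.88, 5.97 and 6.04 in knockout against 5.94, 5.89 and 5.97 in wild type and was nearly level over all arrays. Higd1a, a mitochondrial inner-membrane protein, had 4.82, 4.50 and 6.09 in knockout against 4.56, 4.84 and 6.27 in wild type, above background on the replicate 3 arrays alone.

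P4ha1 and P4ha2 are the catalytic subunits of collagen prolyl hydroxylase, and Ero1a is an oxidase of protein folding in the endoplasmic reticulum. P4ha1 had 7.91, 8.25 and 9.45 in knockout against 7.75, 8.20 and 9.44 in wild type. P4ha2 had 5.83, 5.80 and 7.32 in knockout against 5.61, 6.01 and 7.25 in wild type. Ero1a had 6.55, 6.47 and 8.44 in knockout against 6.35, 6.55 and 8.29 in wild type. In all 3 genes the replicate 3 arrays of both genotypes were the highest, and the differences between genotypes were 0.07, 0.03 and 0.09.

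The widest mean difference of any member was that of Ndrg1, a stress-responsive gene. It had 6.41, 6.54 and 5.79 in knockout against 6.82, 6.69 and 6.17 in wild type. The knockout array was the lower in each pair, with differences of −0.41, −0.15 and −0.38, though knockout replicates 1 and 2 lay above wild-type replicate 3. Its mean was 6.25 ± 0.40 in knockout and 6.56 ± 0.35 in wild type (SD, n = 3 each), a difference of −0.31 or 0.81-fold (SE 0.10 with the block). It was the 1 member with an unadjusted p under 0.05 in limma with the block, where 1492 of all genes had one (3.28% of genes higher and 3.45% lower in the knockout), and its adjusted p was 0.558. A second Ndrg1 probe set had 5.97, 5.98 and 7.03 in knockout against 6.32, 6.17 and 6.88 in wild type, lower in the knockout in replicates 1 and 2 and higher in replicate 3.

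Adm encodes adrenomedullin, a vasodilator peptide induced by low oxygen. It had 5.68, 5.90 and 8.09 in knockout against 5.82, 6.04 and 8.19 in wild type. The pairs were close to each other, with differences of −0.14, −0.14 and −0.10, and the mean of −0.13 did not pass the test (limma with block, adjusted p = 0.845). Together with Hif1a, Vhl, Ndrg1 and Slc2a3 (below background), it makes 5 of 19 other hypoxia genes that were lower in 3 of 3 pairs, while 2, Ddit4 and P4ha1, were higher. Over all 31 members the counts were 6 higher and 5 lower, beside 13.8% of all genes in each direction.

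**Figure D3:**
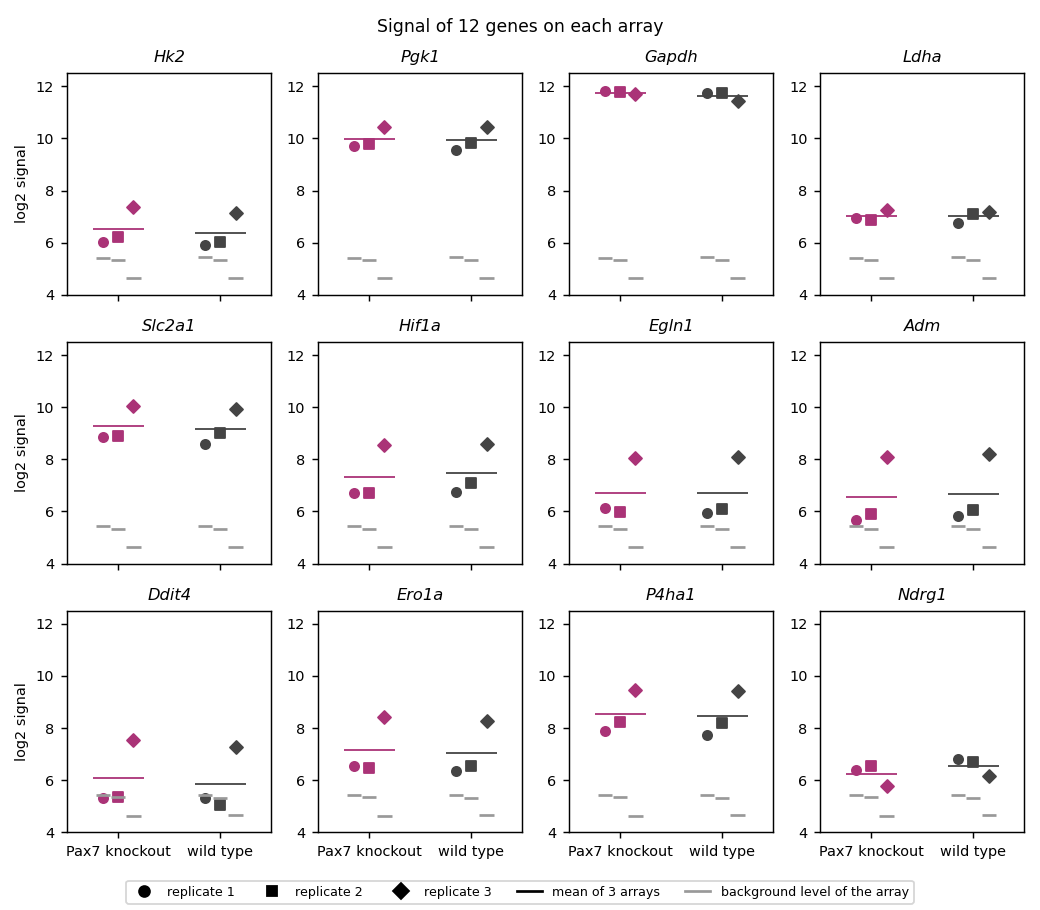
Log2 signal of 12 members on each array, Pax7 knockout left and wild type right, with 1 symbol per replicate, a line at the mean of 3 arrays and a grey dash at each array's background. Knockout and wild-type arrays of the same replicate lie near each other, and replicate 3 is the highest in each genotype for all but Gapdh and Ndrg1.

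In many members, replicate 3 lay further from replicates 1 and 2 than knockout lay from wild type. The signal on replicate 3 was set against the mean of replicates 1 and 2 within each genotype, as a description with no test. Of the 31 members, 12 were at least 1 log2 unit higher on replicate 3 in both genotypes, beside 23.0% of all genes, and none was as much lower in both, beside 8.95% of all genes. These were 3 of 12 glycolytic enzymes (Hk2, Pfkl and Pgam1) and 9 of 19 other hypoxia genes (Hif1a, Egln1, Slc2a1, Higd1a, Ddit4, P4ha1, P4ha2, Ero1a and Adm). The counts hold for the probe set used, which was picked by its mean over all arrays, replicate 3 included. A second Pgam1 probe set shifted by 0.12 in each genotype, and a second Ero1a probe set by 1.03 in knockout and −0.05 in wild type. Higd1a was counted on its measured values but was not above background on any replicate 1 or 2 array, and with background in their place its shift is bounded only at 0.70 in knockout and 0.88 in wild type. Adm had shifts of 2.30 in knockout and 2.26 in wild type, and Egln1 of 1.99 in knockout and 2.06 in wild type. Ddit4 was below background on all but 1 of the replicate 1 and 2 arrays, so its shift is given as at least 4.39-fold in knockout and 3.70-fold in wild type, with background standing in for values under it.

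Genes that were bright in replicates 1 and 2 shifted in both directions on these 2 arrays, more often upward. Of 9272 genes above background on all replicate 1 and 2 arrays, 36.1% were at least 1 higher and 15.7% at least 1 lower in both genotypes, with a median of 0.65 in knockout and 0.66 in wild type. Members bright by the same rule numbered 23, of which 10 were that much higher, 3 of 11 glycolytic enzymes and 7 of 12 other hypoxia genes. The bright glycolytic enzymes had medians of 0.61 in knockout and 0.73 in wild type, close to those of all bright genes. The bright other hypoxia genes had medians of 1.26 in knockout and 1.28 in wild type. No test was made of this gap.

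Quantile normalization gives every array the same distribution of values. It left 4.81% of the bright genes at least 1 higher in both genotypes, and of the 23 bright members Adm alone, with 1.33 in knockout and 1.20 in wild type. Over all 31 members 4 were past 1 in both genotypes on that scale, beside 9.32% of all genes. The others were Ddit4, Higd1a and Egln3, whose values on that scale rest on replicate 1 and 2 arrays where they were mostly not above background. Egln3 had not been past 1 in wild type on the deposited values. The median over bright glycolytic enzymes became −0.12 in knockout and −0.09 in wild type, and over bright other hypoxia genes 0.22 in knockout and 0.24 in wild type, against −0.20 in knockout and −0.19 in wild type over all bright genes. Slc16a3 had −0.86 in knockout and −1.34 in wild type on that scale, Ndrg1 −1.16 and −1.28, and Vhl −0.88 and −1.14. The part of culture conditions, RNA quality or array processing in these shifts was not tested.

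**Figure D4:**
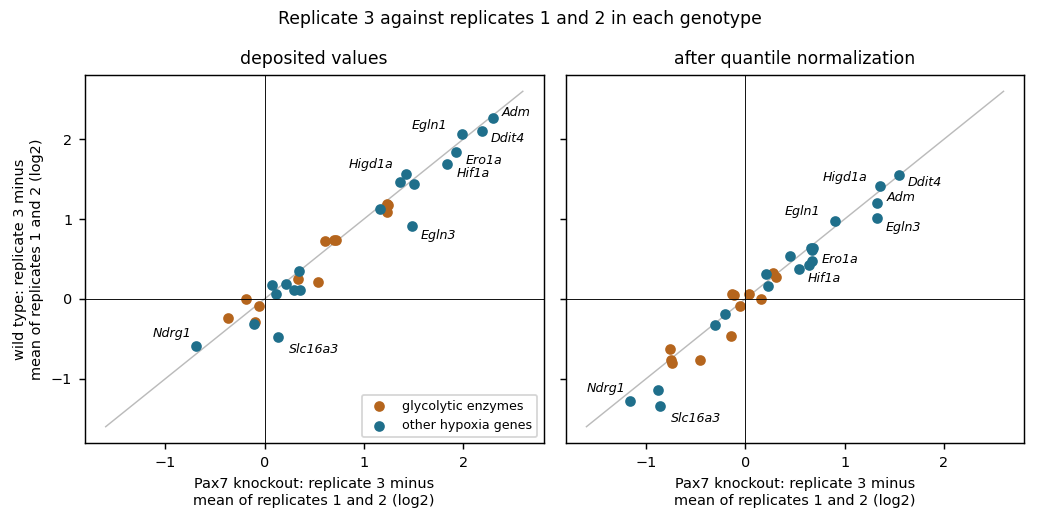
Replicate 3 minus the mean of replicates 1 and 2 in log2 signal, Pax7 knockout on the x axis and wild type on the y axis, for deposited values (left) and after quantile normalization (right), 1 point per member with the line of equality. Points lie along the line, with Adm at 2.30 in knockout and 2.26 in wild type before normalization and at 1.33 and 1.20 after it.

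The genotypes also moved differently between replicates 1 and 2. Of the 31 members, 24 were higher on wild-type replicate 2 than on wild-type replicate 1, against 57.2% of all genes and 65.7% of bright genes. In knockout the count was 18, against 50.1% of all genes. The median step was 0.04 in knockout and 0.14 in wild type. Over all genes it was 0.0003 in knockout and 0.034 in wild type, and over bright genes 0.0008 in knockout and 0.083 in wild type. Each step sets 1 array against 1 other. Of the members, 18 were higher in the knockout in the first pair, 13 in the second and 21 in the third, beside 53.6%, 45.9% and 50.4% of all genes, and 9 were higher in the first but lower in the second (29.0%, against 29.4% of all genes).

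Genes of the same pathways outside the list gave no call either. Of 60 listed in 5 groups, 52 could be used, and none passed limma's test in either fit or lay clear between genotypes. In 3 of 3 pairs, 10 were higher in the knockout and 7 lower, beside 13.8% of all genes in each direction. Median differences were −0.01 over 16 other HIF targets, −0.05 over 10 genes of the HIF machinery, −0.02 over 14 other genes of glycolysis and lactate, −0.03 over 8 genes of pyruvate entry to mitochondria and 0.04 over 4 of the pentose phosphate pathway.

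With the block, 3 of the 52 had an unadjusted p under 0.05, each higher in the knockout, beside 3.28% of all genes higher and 3.45% lower, so the count is near the share over all genes. Plod2, a collagen lysyl hydroxylase, had 6.59, 6.90 and 8.84 in knockout against 6.09, 6.26 and 8.69 in wild type, a difference of 0.43 (SE 0.11 with the block, limma adjusted p = 0.430). Pdk4, a second brake on pyruvate dehydrogenase, had 5.17, 5.28 and 6.53 in knockout against 4.995, 5.05 and 6.04 in wild type, a difference of 0.30 (SE 0.10, limma adjusted p = 0.607). Pdk4 was above background on the replicate 3 arrays only, where the pair differed by 0.49. Its other pair differences, 0.17 and 0.24, are between dim values. Vegfa, the angiogenic growth factor, had 7.29, 7.24 and 8.70 in knockout against 6.93, 7.26 and 8.12 in wild type, with pair differences of 0.35, −0.01 and 0.58. Replicate 3 was again the highest array of each genotype in all 3 genes.

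Genes of the HIF machinery did not all shift the same way on replicate 3. Arnt, the subunit with which both alpha subunits pair, had 6.25, 6.32 and 8.19 in knockout against 6.19, 6.60 and 8.50 in wild type, while Hif3a, a relative that can restrain HIF activity, was lower on replicate 3, where it was not above background, with 5.86, 6.09 and 4.43 in knockout against 5.76, 5.73 and 4.36 in wild type. In the wider lists 23 of 52 genes were at least 1 log2 unit higher on replicate 3 in both genotypes. Among them were 8 of the other HIF targets and 6 of the HIF machinery. The share was 23.0% over all genes and 36.1% over bright genes, and only 33 of the 52 were above background on all 6 arrays. After quantile normalization 7 of the 52 were at least 1 higher in both, beside 9.32% of all genes. On the deposited values 3 were at least 1 lower in both, beside 8.95% of all genes. These were Hif3a and, named after their values were seen, Pklr and Slc2a4.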

How the data were processed

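The authors deposited log2 signals of 41345 probe sets from 6 Affymetrix arrays, made with RMA and Partek per the submitters' processing notes (versions not given in the sources used here). RMA includes background correction and normalization between arrays, yet the replicate 3 arrays keep a wider distribution. Probe sets were named through the platform annotation: 23521 had 1 gene, 1814 several and 16010 were not listed. The brightest single-gene probe set stood for each of 22180 genes. Differences were tested with limma 3.58.1 (R 4.3.3) on genotype alone, two-sided, with Benjamini-Hochberg adjustment over all genes at 0.05. Deviations from the genotype means correlated at 0.92, 0.895 and 0.973 in pairs 1, 2 and 3. The crossed pairs of replicates 1 and 2 correlated as highly (0.898 and 0.910). Replicate 1 minus replicate 2 correlated at only 0.043 between the genotypes. The data thus pair the replicate 3 arrays alone. The replicate block was an alternative, as were left-out arrays, quantile normalization, interquartile scaling, a filter on dim probe sets, the mean of probe sets and a variance trend. The number of arrays limits the precision. Members and lists were chosen with earlier results of these data known. Named genes were all usable members and, of each wider list, those smallest in p with the block, of which the text gives some. On simulated data with changes of 1 and 2 log2 units, the fit with the replicate block recovered 69% and 96% of them. The fit on genotype alone recovered none, so an absence of calls without the block is not informative. The simulated arrays were built with all 3 replicates paired, and changes as small as the members' differences were not simulated. The simulation therefore does not show whether the fit with the block could call these.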

Additional observations from a re-analysis of the deposited data

How the results depend on the processing

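No member passed the threshold under any alternative run. Over all genes the count past the threshold was 0 without and 17 with the replicate block, 19 with replicate 3 as a batch block, and 0 to 98 when 1 array or 1 pair was left out (4 without replicate 3, 98 without replicate 1, with the block). The median difference of glycolytic enzymes ran from −0.16 to 0.18 with arrays left out and was 0.057 under interquartile scaling and 0.087 without replicate 2 (with the block). That of other hypoxia genes ran from −0.21 to 0.41. Signs of members are weakly fixed: 17 of 31 turned without knockout replicate 3 and 13 without wild-type replicate 1, where the genotypes no longer hold the same replicates, against 2 under quantile normalization. The replicate block changed no member's call. The filter on dim probe sets kept 25 members, and Slc2a3 had no measurable signal.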

Other observations

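Ero1a is read by a second single-gene probe set that behaved differently from the one used. It had 6.13, 6.18 and 7.19 log2 signal in knockout replicates 1, 2 and 3, against 6.27, 6.10 and 6.13 in wild type. Knockout replicate 3 alone was high on it, whereas both replicate 3 arrays were high on the probe set used, with 8.44 in knockout and 8.29 in wild type. Pgam1 also has a second probe set, with 7.33, 7.49 and 7.53 in knockout against 7.25, 7.30 and 7.40 in wild type. Replicate 3 stood little above the others there, unlike the 9.71 in knockout and 9.60 in wild type of the probe set used. Ndrg1 differed in direction, since replicate 3 was the lowest array of each genotype on the probe set used and the highest on the second.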
